A study of Mus musculus with 9 samples.

Results

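The 10 genes described here carry calcium through the cardiac muscle cell: Atp2a2, Pln, Sln, Ryr2, Casq2, Slc8a1, Cacna1c, Trdn, Jph2 and S100a1. They were chosen by gene name from the 41710 gene names of the deposited tables, with earlier results of these data known. All 10 were found, with 77 of the 127558 annotated transcripts, and all 10 passed the filter on low counts. Their transcripts were measured in 9 RNA-seq libraries from hearts of male FVB/N mice at 8 months of age. There were 3 libraries of Tg-RKIP mice, 3 labelled Tg-GRK2 and 3 of non-transgenic FVB/N mice, called FVB here. Tg-RKIP mice carry a transgene for RKIP, the RAF kinase inhibitor protein encoded by Pebp1, which the alpha-MHC promoter directs to the heart muscle cells. By their label, Tg-GRK2 mice carry a transgene for the G protein-coupled receptor kinase GRK2. Its promoter is not given in the sources used here. Whole hearts were pulverised, so the RNA comes from every cell type of the heart.

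Each heartbeat begins with calcium entry through the L-type channel, whose pore is encoded by Cacna1c. This calcium opens the ryanodine receptor Ryr2, the release channel of the sarcoplasmic reticulum (SR), which holds its calcium bound to calsequestrin (Casq2) and is tied to it by triadin (Trdn), while junctophilin (Jph2) keeps the SR close to the plasma membrane. Relaxation needs the SR calcium pump SERCA2 (Atp2a2), which is inhibited by the small membrane proteins phospholamban (Pln) and sarcolipin (Sln), and the sodium-calcium exchanger (Slc8a1), which expels calcium from the cell. S100a1 is a calcium-binding protein that acts on the pump and on the release channel.

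In Tg-RKIP hearts, the pump, its main inhibitor, the release channel, the exchanger and the channel pore fell. S100a1 rose, but lay only 0.16 above the median gene on the log2 scale. The pump and phospholamban fell to nearly the same extent, and the release channel fell more than either. By counts, calsequestrin, triadin, junctophilin and sarcolipin fell less than the 5 named first. In the libraries labelled Tg-GRK2 the changes were small, and Ryr2 and Jph2 showed the greatest increases.

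The members lie on 8 chromosomes of GRCm39, as the deposited tables give them. Atp2a2 spans 122591576 to 122640288 on chromosome 5 (minus strand), Pln 53213763 to 53222083 on chromosome 10 (plus) and Sln 53757448 to 53761844 on chromosome 9 (plus). Ryr2 spans 11567988 to 12121831 on chromosome 13 (minus), Casq2 101993731 to 102053830 on chromosome 3 (plus), Trdn 32956550 to 33352705 on chromosome 10 (plus) and Jph2 163178162 to 163239913 on chromosome 2 (minus). Cacna1c spans 118564201 to 119173851 on chromosome 6 (minus), Slc8a1 81680534 to 82045806 on chromosome 17 (minus) and S100a1 90418341 to 90421699 on chromosome 3 (minus). The values are sums over all annotated transcripts of a gene.

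The products of the smallest members are short enough to be read whole. The coding sequences of the main transcripts of Pln and Sln, which encode 52 and 31 amino acids, are shown because these inhibitors of the same pump differed in their change. Capitals mark the start and stop codons, and the letters come from GENCODE M21.
Pln_4: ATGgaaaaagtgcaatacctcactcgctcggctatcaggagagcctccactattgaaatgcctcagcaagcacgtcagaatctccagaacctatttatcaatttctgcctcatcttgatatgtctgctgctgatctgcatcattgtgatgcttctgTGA
Sln_1: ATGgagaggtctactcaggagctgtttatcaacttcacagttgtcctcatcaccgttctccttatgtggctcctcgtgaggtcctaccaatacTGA

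The pump gene gives rise to transcripts that differ at the end of the coding sequence. Atp2a2_4 encodes 998 amino acids and has the ending of SERCA2a, the form of heart muscle. Atp2a2_5 encodes 1044 and has the ending of SERCA2b, the form found in most cell types. Atp2a2_3 has the same coding sequence as Atp2a2_5 and is annotated as subject to nonsense-mediated decay. Atp2a2_4 and Atp2a2_5 share their first 2983 coding bases. The 15 last shared bases are in lower case below, and capitals mark what follows in each, since the reads given to these transcripts changed unequally.
Atp2a2_4: acctggaacaacccgCAATACTGGAGTAA
Atp2a2_5: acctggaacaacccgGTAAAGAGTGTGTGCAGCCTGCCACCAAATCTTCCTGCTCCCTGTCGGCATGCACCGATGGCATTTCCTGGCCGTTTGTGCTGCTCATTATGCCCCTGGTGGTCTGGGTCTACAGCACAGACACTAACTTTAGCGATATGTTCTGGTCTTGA

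The libraries held 25458108 to 33447654 reads on transcripts. Pebp1 was higher in every Tg-RKIP library, at 15967 to 16371 TPM, the length-corrected share of transcripts, against 321 to 329.8 TPM in FVB. Grk2 stood at 24.9 to 30.5 TPM where the label is Tg-GRK2, beside 25.9 to 27.9 TPM in FVB, with a log2 fold change of 0.05 (SE 0.04, adjusted p = 0.354, edgeR), so these libraries are named by their label throughout. The share of mitochondrially encoded transcripts was 11.7% ± 0.156 (SD, n = 3) for Tg-RKIP, beside 22.6% ± 0.299 (SD, n = 3) for the libraries labelled Tg-GRK2 and 23.1% ± 0.158 (SD, n = 3) for FVB. All 10 cardiomyocyte markers were detected, from Ttn at 71.8 TPM to Tpm1 at 9105 TPM in FVB, while the skeletal muscle regulators Myod1 and Myog were below 0.1 TPM in the mean of FVB and of Tg-RKIP. The labels number the replicates of a group, and the spread between libraries was small, with a biological coefficient of variation of 2.86%. The p-values measure only this spread, which may be technical. The squared difference between libraries, over sampling noise, averaged 22.7 and 25.2 for Tg-GRK2 replicate 1 against replicates 2 and 3. For other pairs within a group this mean was 1.74 to 2.82. The median over genes was 1.37 to 1.53 for all pairs within a group.

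Levels between genes are compared in TPM, which divides the reads by transcript length and rescales each library to the same total. Log2 fold changes between groups come from gene counts scaled by the TMM method. The test is the quasi-likelihood test of edgeR, with p-values adjusted over 15504 genes after Benjamini and Hochberg and a threshold of 0.05. A gene is called higher, lower, risen or fallen by counts where it passed this threshold. In Tg-RKIP against FVB, 1 member was higher and 9 were lower, where 36.8% of all tested genes rose and 37.1% fell. The median log2 fold change of the members was -0.77, beside 0.01 over all tested genes.

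The scaling matters in this comparison. With scaling to library size alone, the higher genes of Tg-RKIP made up 62.6% and the lower ones 17.1% of all tested, and the median gene lay 0.38 above FVB on the log2 scale. On that scale 2 members were higher, 7 lower and 1, Sln, was not past the threshold. By limma on log2(TPM + 0.1), with 66.0% of genes higher, 14.4% lower and a median of 0.43, 2 members were higher, 6 lower and 2, Sln and Jph2, not past the threshold. Relative to the median gene, the same 9 members lay below and S100a1 above under all 3 scalings. The libraries hold bulk tissue, in which fewer cells of a type and less RNA per cell cannot be told apart.

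**Figure D1:**
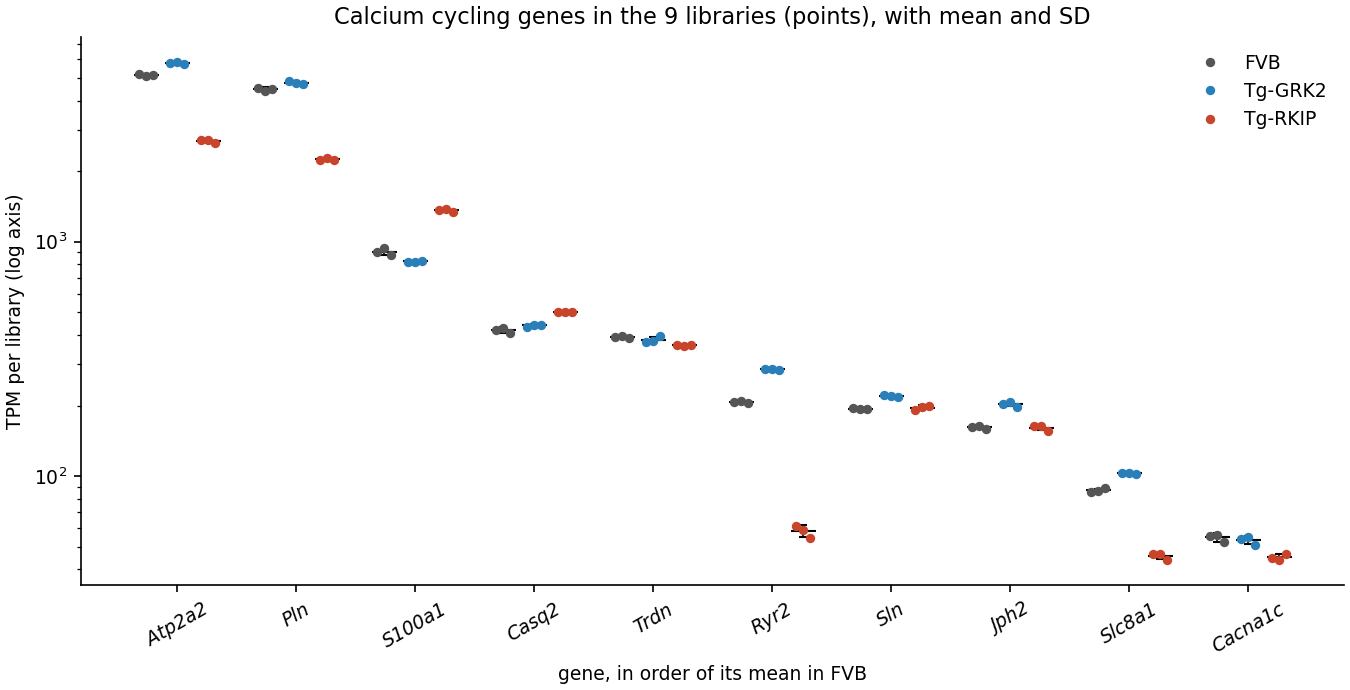
TPM (log axis) of the 10 genes in each library, with points for the libraries of FVB (grey), those labelled Tg-GRK2 (blue) and Tg-RKIP (red), and black bars for the mean and SD of 3. Atp2a2, Pln, Ryr2 and Slc8a1 lie far lower in Tg-RKIP than in the other groups, S100a1 lies higher, and Sln and Jph2 overlap with FVB.

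Atp2a2 was the most abundant member in every group. The SERCA2 gene stood at 2721, 2715 and 2644 TPM in Tg-RKIP, at 5182, 5074 and 5145 TPM in FVB and at 5804, 5855 and 5718 TPM in the libraries labelled Tg-GRK2. The groups did not overlap, with Tg-RKIP lowest and Tg-GRK2 highest. The mean was 2694 ± 43.0 TPM (SD, n = 3) in Tg-RKIP, which is 0.525 of the 5134 ± 55.0 TPM (SD, n = 3) in FVB. By counts, the log2 fold change was -1.33 (SE 0.01, adjusted p = 3.61e-28, edgeR), and only 3.32% of tested genes had a lower value. Against FVB, the libraries labelled Tg-GRK2 were higher by 0.12 (SE 0.01, adjusted p = 4.09e-09, edgeR).

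Pln, which restrains the pump until it is phosphorylated, was next in abundance. It stood at 2238, 2266 and 2234 TPM in Tg-RKIP, at 4543, 4389 and 4493 TPM in FVB and at 4828, 4763 and 4696 TPM in the libraries labelled Tg-GRK2. All Tg-RKIP libraries lay below all others. The log2 fold change of counts against FVB was -1.34 (SE 0.01, adjusted p = 1.03e-26, edgeR) in Tg-RKIP. In the libraries labelled Tg-GRK2 it was -0.04 (adjusted p = 0.0398, edgeR), while the mean TPM was 1.06 times that of FVB, so the direction of this small difference depended on the unit. The call was also lost without Tg-GRK2 replicate 1 or 2 (adjusted p = 0.139 and 0.232, edgeR) and without FVB replicate 1 or 3 (adjusted p = 0.128 and 0.107, edgeR). Exons of Pln lie opposite those of Cep85l and Gm47644 on the other strand, and whether the counting used strand is not stated. These genes had at most 749 and 247 reads in a library, against at least 85089 of Pln.

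Sln, known chiefly from the atria, where it inhibits the same pump, had similar TPM in Tg-RKIP and FVB. The values were 192, 197 and 200.0 TPM in Tg-RKIP, beside 196, 193 and 194 TPM for FVB, and they overlapped. Those labelled Tg-GRK2 stood at 223, 219.8 and 217 TPM, above all others. By counts, Sln was lower in Tg-RKIP with a log2 fold change of -0.40 (SE 0.02, adjusted p = 6.20e-13, edgeR). It was -0.03 (adjusted p = 0.254, edgeR) with libraries scaled to their size and 0.01 (adjusted p = 0.676) by limma on TPM, so the call rests on the scaling. Of 9 atrial markers, 3 rose and 5 fell in Tg-RKIP by TMM-scaled counts, with a median of -0.21, while by library size 5 rose and 4 fell, with a median of 0.17. Their summed level was 3129 to 3239 TPM against 1922 to 1994 TPM in FVB. Most of that sum was Myl4, the atrial light chain, at 2532 ± 62.9 TPM (SD, n = 3) against 1045 ± 5.20 TPM (SD, n = 3), while Myl7 stood at 369 ± 21.9 TPM (SD, n = 3) against 673 ± 32.8 TPM (SD, n = 3). The part of atrial tissue in the level of Sln was not tested.

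Ryr2, the release channel, had the greatest decrease of the 10. Its TPM were 61.3, 58.9 and 54.7 in Tg-RKIP, 207, 209 and 206 in FVB, and 287, 288 and 285 in the libraries labelled Tg-GRK2. The 3 groups were far apart, in opposite directions from FVB. The log2 fold change of counts was -2.07 (SE 0.02, adjusted p = 1.12e-27, edgeR) in Tg-RKIP, and under 1.00% of tested genes had a lower value. Where the label is Tg-GRK2 it was 0.38 (SE 0.02, adjusted p = 9.61e-14, edgeR), also the greatest increase among the members. The direct comparison of Tg-RKIP with Tg-GRK2 gave -2.45 (SE 0.02, adjusted p = 6.67e-29, edgeR).

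The partners of the release channel changed less than it did. Casq2, the calcium store of the SR, stood at 499, 502 and 499.9 TPM in Tg-RKIP against 421, 431 and 408 TPM in FVB and 434, 442 and 443 TPM in the libraries labelled Tg-GRK2. In TPM it was thus higher in every Tg-RKIP library than in any other. By TMM-scaled counts it was lower than FVB, with a log2 fold change of -0.15 (SE 0.02, adjusted p = 5.32e-08, edgeR), and by library size it was higher, at 0.23 (adjusted p = 7.31e-11, edgeR). Its direction therefore reversed with the scaling, and it lay 0.16 to 0.17 below the median gene under all 3 scalings.

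Trdn, which links calsequestrin to the channel, stood at 361, 360.3 and 361 TPM in Tg-RKIP, at 394, 395 and 390.2 TPM in FVB and at 373, 379 and 395 TPM in the libraries labelled Tg-GRK2. The Tg-RKIP libraries lay below all others. Part of this level was Trdn_1, annotated as a retained intron. It stood at 115 ± 2.05 TPM (SD, n = 3) in Tg-RKIP and at 119 ± 3.20 TPM (SD, n = 3) in FVB. Jph2, which ties the SR to the plasma membrane, stood at 163, 163 and 156 TPM in Tg-RKIP and at 163, 164 and 159 TPM in FVB, which overlap, and at 203, 206 and 198 TPM in the libraries labelled Tg-GRK2. By counts, the log2 fold changes in Tg-RKIP were -0.51 (SE 0.02) for Trdn and -0.43 (SE 0.02) for Jph2, with adjusted p = 7.41e-16 and 1.01e-14 by edgeR. Among those labelled Tg-GRK2, Jph2 rose by 0.27 (SE 0.02, adjusted p = 7.11e-10, edgeR), and Trdn was lower by counts, at -0.08 (SE 0.02, adjusted p = 0.00355, edgeR), with overlapping TPM.

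Slc8a1, the exchanger that removes calcium across the plasma membrane, fell in Tg-RKIP to nearly the same share of FVB as the pump, 0.524 in TPM. Its TPM were 46.4, 46.6 and 43.9 in Tg-RKIP, 85.7, 86.7 and 88.6 in FVB and 103, 103 and 102 in the libraries labelled Tg-GRK2. The groups did not overlap. The log2 fold change of counts was -1.04 (SE 0.02, adjusted p = 2.55e-21, edgeR) in Tg-RKIP and 0.14 (SE 0.02, adjusted p = 1.33e-05, edgeR) in the libraries labelled Tg-GRK2.

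Cacna1c, the pore of the L-type channel, had the lowest mean TPM of the members in every group, though in Tg-RKIP it overlapped with Slc8a1. It stood at 44.6, 44.1 and 46.5 TPM in Tg-RKIP, beside 55.8, 56.4 and 52.2 TPM for FVB and 54.0, 54.9 and 50.9 TPM in the libraries labelled Tg-GRK2. The Tg-RKIP libraries lay below all others, and the other groups overlapped. The size of its decrease depended on the unit. The log2 fold change was -1.29 (SE 0.02, adjusted p = 2.46e-22, edgeR) by counts and -0.28 (adjusted p = 0.000684) by limma on TPM. Most of the TPM in Tg-RKIP belonged to Cacna1c_1, a short transcript annotated without a coding sequence. It stood at 29.2 ± 1.21 TPM (SD, n = 3) in Tg-RKIP and at 7.26 ± 1.68 TPM (SD, n = 3) in FVB. The longest transcript, Cacna1c_6, which is coding, stood at 10.2 ± 0.304 TPM (SD, n = 3) against 17.0 ± 0.336 TPM (SD, n = 3).

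S100a1 was the single member that was higher in Tg-RKIP by TMM-scaled counts, and it was higher under the other scalings too. Its TPM were 1364, 1379 and 1339 in Tg-RKIP, 903, 944 and 877 in FVB and 819, 822 and 830.3 in the libraries labelled Tg-GRK2. The order of the groups was the reverse of that for the pump. The mean TPM in Tg-RKIP was 1.5 times that of FVB, and the log2 fold change of counts was 0.16 (SE 0.02, adjusted p = 1.09e-06, edgeR). For Tg-GRK2 against FVB it was -0.18 (SE 0.02, adjusted p = 3.08e-06, edgeR).

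In the order of mean TPM, FVB ran from Atp2a2 through Pln, S100a1, Casq2, Trdn, Ryr2, Sln, Jph2 and Slc8a1 to Cacna1c. The libraries labelled Tg-GRK2 had the same order. In Tg-RKIP, Ryr2 moved below Sln and Jph2, and S100a1 at 1361 ± 19.9 TPM (SD, n = 3) came closer to Pln at 2246 ± 17.3 TPM (SD, n = 3). Neighbours in these orders did not overlap between libraries, except Slc8a1 at 45.6 ± 1.47 TPM (SD, n = 3) and Cacna1c at 45.1 ± 1.29 TPM (SD, n = 3) in Tg-RKIP. The 10 members together took 1.38% of the reads of Tg-RKIP, 2.66% of those labelled Tg-GRK2 and 2.48% of FVB.

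Across the libraries labelled Tg-GRK2 against FVB, 5 members were higher and 3 lower past the threshold, where 12.2% of tested genes were higher and 12.2% lower. Cacna1c and Casq2 were not past it, with log2 fold changes of 0.01 and 0.03. In Tg-RKIP against Tg-GRK2, S100a1 was higher by 0.35 (SE 0.02) and the other 9 were lower, where 37.9% of tested genes were higher and 36.6% lower. These comparisons share libraries, and each is given on its own. The TPM of Tg-RKIP and FVB did not overlap for 8 of the 10 members, where 78.8% of all tested genes did not. For Tg-GRK2 and FVB it was 8 of 10 beside 33.8%, and for Tg-RKIP and Tg-GRK2 10 of 10 beside 78.5%. With 3 libraries against 3, an exact two-sided permutation test of one gene cannot go below p = 0.1, the value reached where groups do not overlap.

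**Figure D2:**
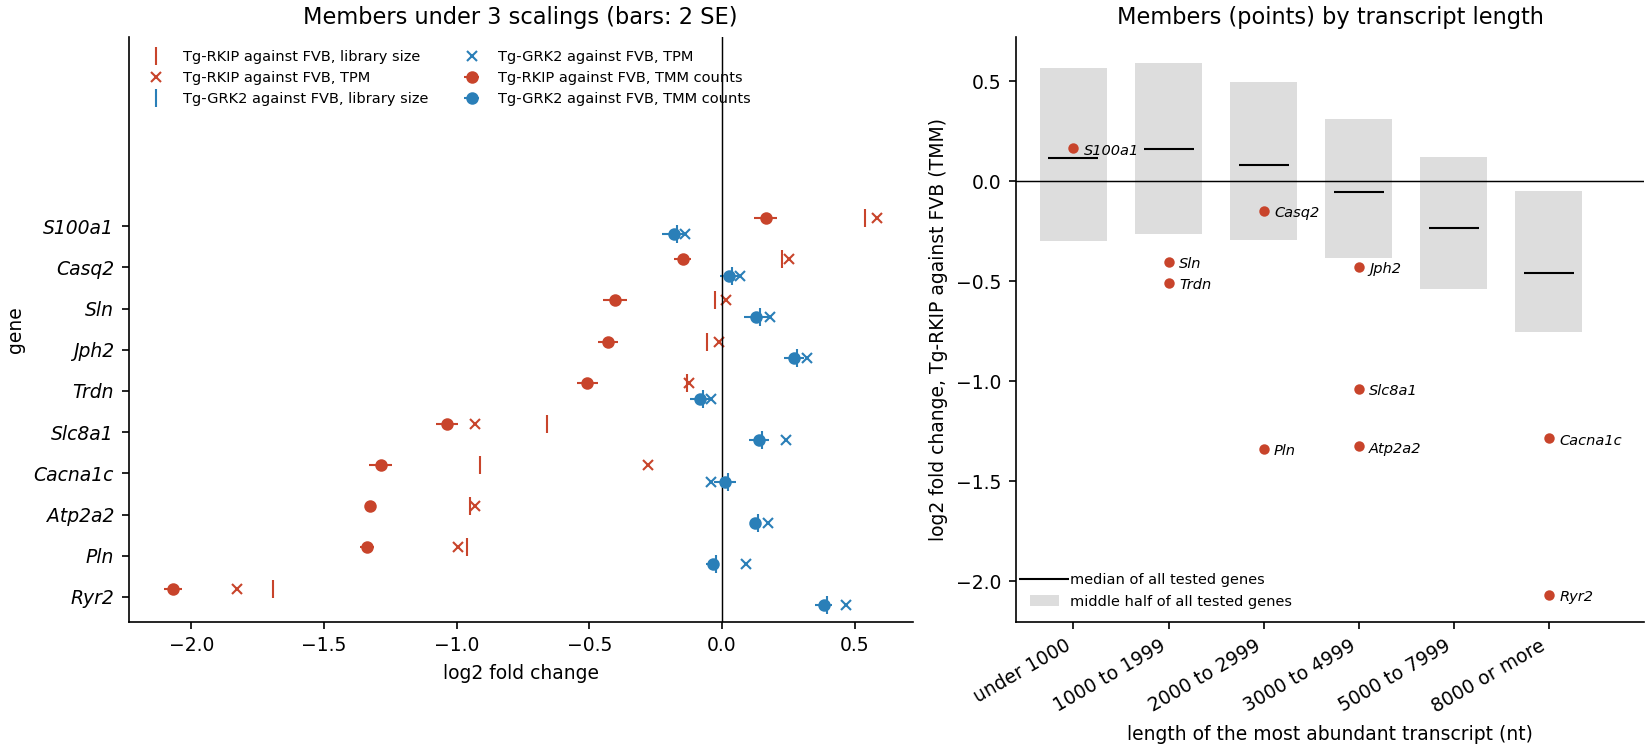
Left, log2 fold change of each gene against FVB for Tg-RKIP (red) and the libraries labelled Tg-GRK2 (blue), with circles for TMM-scaled counts (bars 2 SE), ticks for library size and crosses for TPM. Right, log2 fold change in Tg-RKIP against FVB by length of the most abundant transcript, with grey boxes from the lower to the upper quartile of all tested genes, black lines for their median and red points for the members, of which Ryr2 at -2.07 and Cacna1c at -1.29 lie below the box of the longest transcripts. The most abundant transcript is that of the highest mean TPM. Slc8a1 is thus placed at 3339 nt, though 82.1% ± 0.293 (SD, n = 3) of its reads in Tg-RKIP were given to a transcript of 18464 nt. Trdn is placed at 1665 nt by a transcript annotated as a retained intron.

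Transcript length moved with the difference between Tg-RKIP and FVB. The median log2 fold change of tested genes was 0.12 for transcripts under 1000 nt, 0.16 for 1000 to 1999 nt, 0.08 for 2000 to 2999 nt, -0.06 for 3000 to 4999 nt, -0.23 for 5000 to 7999 nt and -0.46 for 8000 nt or more. Ryr2, with a main transcript of 16814 nt, and Cacna1c, with one of 13162 nt, fall in the last class, whose quartiles were -0.75 and -0.05. Both lay below the lower quartile. Pln, of 2334 nt, and Atp2a2, of 3984 nt, also lay below the lower quartiles of their classes, which were -0.29 and -0.38. S100a1, of 577 nt, and Casq2, of 2434 nt, lay between the quartiles of theirs. In Tg-GRK2 against FVB the medians ran the other way and less far, from -0.07 under 1000 nt to 0.07 for 8000 nt or more. There Ryr2, at 0.38, lay above the upper quartile of its class, 0.19, and Cacna1c, at 0.01, lay below the median of that class. S100a1, at -0.181, lay close to the lower quartile of its class, -0.180. The part of transcript length in the differences of either comparison was not tested.

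Ratios of members within a library do not depend on how libraries are scaled to each other, but they can differ between TPM and counts. Of 13 ratios of TPM, 12 did not overlap between Tg-RKIP and FVB, and 12 of 13 did not in each of the other comparisons. Among single genes, 78.8% of all tested did not overlap between Tg-RKIP and FVB. The share over all pairs of genes was not computed. The ratio of Pln to Atp2a2 was 0.834 ± 0.0114 (SD, n = 3) in Tg-RKIP, 0.872 ± 0.00603 (SD, n = 3) in FVB and 0.822 ± 0.00925 (SD, n = 3) in the libraries labelled Tg-GRK2. The inhibitor and the pump thus kept their ratio to within 0.06 on the log2 scale in Tg-RKIP, with the libraries still apart. The ratio of Sln to Atp2a2 was 0.0705, 0.0724 and 0.0757 in Tg-RKIP against 0.0377, 0.0381 and 0.0377 in FVB, higher by 0.94 (SE 0.03) on the log2 scale. S100a1 to Atp2a2 was 0.501, 0.508 and 0.507 against 0.174, 0.186 and 0.170, or 2.86 times that of FVB. Slc8a1 to Atp2a2 was the ratio that overlapped, at 0.0169 ± 0.000282 (SD, n = 3) against 0.0169 ± 0.000361 (SD, n = 3). This holds in TPM, while by TMM-scaled counts the log2 fold changes were -1.04 for Slc8a1 and -1.33 for Atp2a2. Conversely, Cacna1c to Atp2a2 was higher by 0.65 on the log2 scale in TPM, while by counts Cacna1c was at -1.29, near Atp2a2. Ratios of Cacna1c in TPM include the non-coding Cacna1c_1, which made up most of the level in Tg-RKIP.

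Against the release channel the ratios changed more. Casq2 to Ryr2 was 8.15, 8.52 and 9.14 in Tg-RKIP and 2.03, 2.06 and 1.98 in FVB, a difference of 2.08 (SE 0.05) on the log2 scale. Trdn to Ryr2 was 6.20 ± 0.366 (SD, n = 3) against 1.90 ± 0.00424 (SD, n = 3). Jph2 to Ryr2 was 2.76 ± 0.0983 (SD, n = 3) against 0.783 ± 0.00774 (SD, n = 3). In the libraries labelled Tg-GRK2, all 4 ratios to Ryr2 moved the other way, with Casq2 to Ryr2 at 1.51, 1.54 and 1.55. The exact two-sided permutation test gave p = 0.1, the smallest it can give, for each ratio that did not overlap. TPM depends on transcript length, and length moved with the difference as given above.

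**Figure D3:**
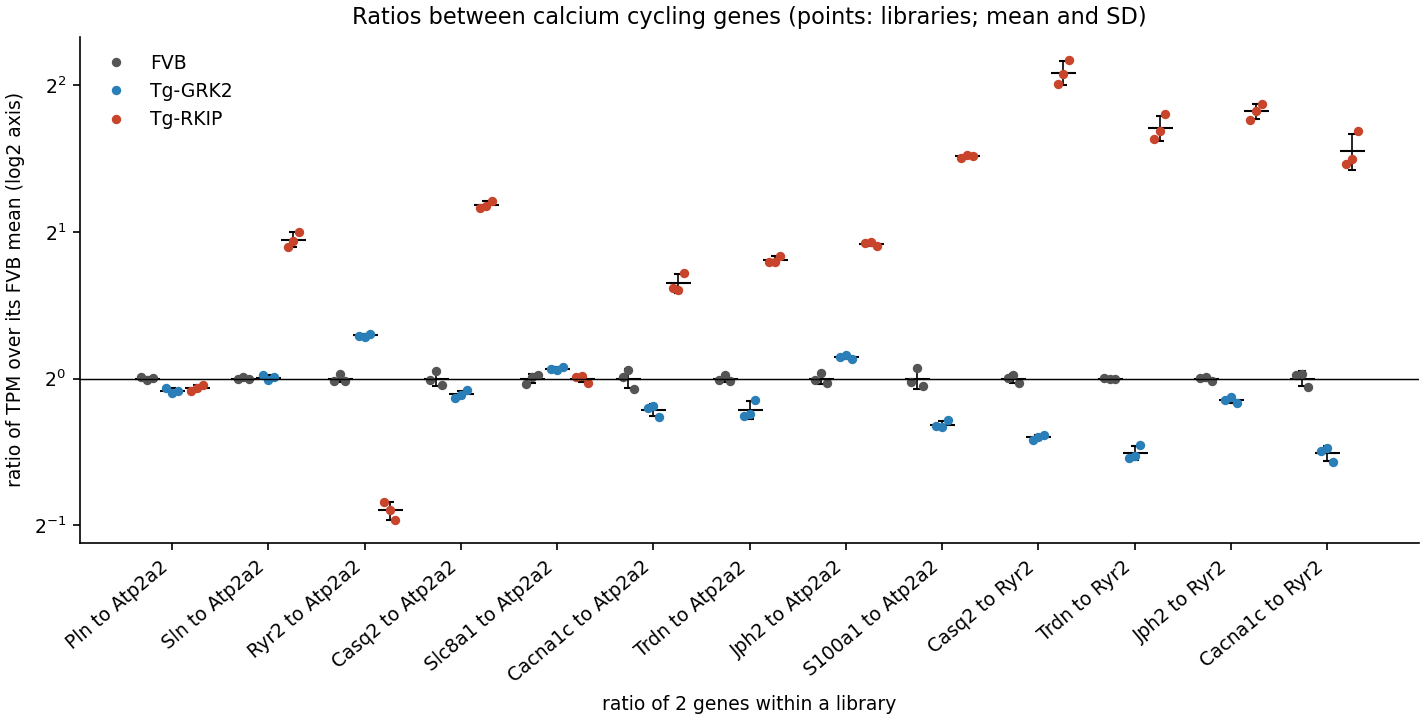
Ratio of TPM of gene pairs within each library, divided by the mean of FVB, on a log2 axis, with points for libraries and bars for mean and SD of 3. Ratios to Ryr2 lie well above the line in Tg-RKIP (red) and below it in the libraries labelled Tg-GRK2 (blue), and Slc8a1 to Atp2a2 lies on it in Tg-RKIP.

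At the level of single transcripts, 25 transcripts held at least 10% of the TPM of their gene in the mean of a group. Of these, 4 rose and 18 fell in Tg-RKIP against FVB, where 15.0% of the 34991 tested transcripts were higher and 19.0% lower. In the libraries labelled Tg-GRK2, 3 were higher and 2 lower, beside 1.67% and 1.75%. How reads were divided between transcripts that share exons is not stated, so the values of single transcripts are estimates, and 5 of the 25 have no base and no junction of their own.

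The main transcript of the pump, Atp2a2_4, on the minus strand of chromosome 5 (122591577 to 122639958, GRCm39), took 91.0 to 91.2% of the reads of its gene in Tg-RKIP and 93.9 to 94.3% in FVB. The transcripts with the SERCA2b ending, Atp2a2_5 and Atp2a2_3, were singled out after their values were seen, since they lay under the 10% limit, and they moved in opposite directions. Atp2a2_5 was given 137, 87 and 104 reads in Tg-RKIP, 10880, 14701 and 12473 in FVB and 26519, 24487 and 27959 in the libraries labelled Tg-GRK2. Its log2 fold change was -7.17 (SE 0.22, adjusted p = 1.35e-07, edgeR) in Tg-RKIP, against -1.34 (SE 0.01) for Atp2a2_4. Its ending is the longer of the pair printed above, and 51 of its 4486 bases belong to it alone.

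Atp2a2_3, with 448 bases of its own, was given 16562, 21104 and 15760 reads in Tg-RKIP, 10523, 11025 and 9736 in FVB and 8281, 7597 and 10156 in the libraries labelled Tg-GRK2. It rose in Tg-RKIP by 0.43 (SE 0.05, adjusted p = 0.000362, edgeR). Summed, Atp2a2_3 and Atp2a2_5 held 8.88% ± 0.0721 (SD, n = 3) of the reads of Atp2a2 for Tg-RKIP, against 5.90% ± 0.228 (SD, n = 3) for FVB and 7.68% ± 0.197 (SD, n = 3) for those labelled Tg-GRK2. The share of reads given to the transcripts with the SERCA2b ending was thus not lower in Tg-RKIP, although that of Atp2a2_5 was, and the sum was not tested. These reads may lie anywhere on the transcripts, so use of the ending itself was not measured.

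Minor transcripts of Pln and Slc8a1 were also low in Tg-RKIP. Pln_6, with the same coding length of 159 bases as Pln_4 but a shorter transcript, was given 44, 27 and 42 reads in Tg-RKIP, 3088, 2425 and 3008 in FVB and 7082, 5849 and 5166 in the libraries labelled Tg-GRK2. Pln_4 took 99.1% ± 0.0797 (SD, n = 3) of the reads of Pln in Tg-RKIP. Slc8a1_4 was given 0 reads in each Tg-RKIP library, against 447, 255 and 560 in FVB, at least 178-fold lower with the floor of 3 reads per library. It has no base or junction of its own, so its level rests on how reads were divided.

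The Ryr2 transcripts differed in a short exon. Ryr2_12, a partial transcript, holds an exon of 24 bases on the minus strand (chr13:11649193-11649216, GRCm39) that the other 2 transcripts spanning this position lack. The exon lies in the annotated coding part. It is printed in capitals, between 15 bases on each side, because the share of Ryr2 reads given to Ryr2_12 as a whole fell. Casq2_4 likewise holds an exon of 9 bases (chr3:102040406-102040414, GRCm39, plus strand) that is absent from the other 3 that span it. Reads on either exon were not counted, so use of the exons themselves was not measured.
Ryr2_12: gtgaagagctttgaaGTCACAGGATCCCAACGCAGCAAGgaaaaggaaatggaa
Casq2_4: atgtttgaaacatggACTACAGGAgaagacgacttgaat

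Ryr2_12 was given 564, 605 and 280 reads in Tg-RKIP, 3962, 4456 and 3877 in FVB and 5358, 5486 and 6476 in the libraries labelled Tg-GRK2. It made up 2.38 to 4.69% of the reads of Ryr2 in Tg-RKIP and 9.49 to 9.70% in FVB. Its log2 fold change was -3.43 (SE 0.21, adjusted p = 7.77e-06, edgeR), against -1.98 (SE 0.04) for the full-length Ryr2_10. Casq2_4 took 65.4% ± 3.25 (SD, n = 3) of the reads of Casq2 in Tg-RKIP, against 58.3% ± 1.44 (SD, n = 3) for FVB. Its own counts had a log2 fold change of 0.05 (SE 0.04, adjusted p = 0.435, edgeR), while Casq2_3, which lacks the exon, fell by 0.36 (SE 0.07, adjusted p = 0.00355, edgeR).

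Within Cacna1c the transcripts moved in opposite directions. Cacna1c_1, annotated as a processed transcript of 2 exons and 2374 nt near the end of the gene (chromosome 6, minus strand, 118569265 to 118572387, GRCm39), was given 1149, 1447 and 1201 reads in Tg-RKIP, 360, 398 and 227 in FVB and 143, 153 and 151 in the libraries labelled Tg-GRK2. It rose in Tg-RKIP by 1.63 (SE 0.16, adjusted p = 0.000134, edgeR). It held 28.8% ± 1.33 (SD, n = 3) of the gene's reads for Tg-RKIP, against 3.91% ± 0.831 (SD, n = 3) for FVB. The longest transcript, Cacna1c_6, fell by 1.11 (SE 0.03, adjusted p = 7.87e-08, edgeR), and Cacna1c_10 fell by 3.16 (SE 0.12, adjusted p = 5.77e-07, edgeR). A read on the short transcript weighs more in TPM than a read on the long ones, and the gene's decrease was smaller in TPM than in counts, as given above.

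Trdn_8, a partial transcript of 614 nt, also rose while its gene fell by counts. It was given 408, 520 and 412 reads in Tg-RKIP and 84, 197 and 152 in FVB, with a log2 fold change of 1.31 (SE 0.37, adjusted p = 0.0266, edgeR). The transcripts of S100a1 kept about equal shares, with S100a1_1 at 51.4% ± 2.62 (SD, n = 3) for Tg-RKIP against 52.0% ± 3.34 (SD, n = 3) for FVB. Sln has a single annotated transcript.

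**Figure D4:**
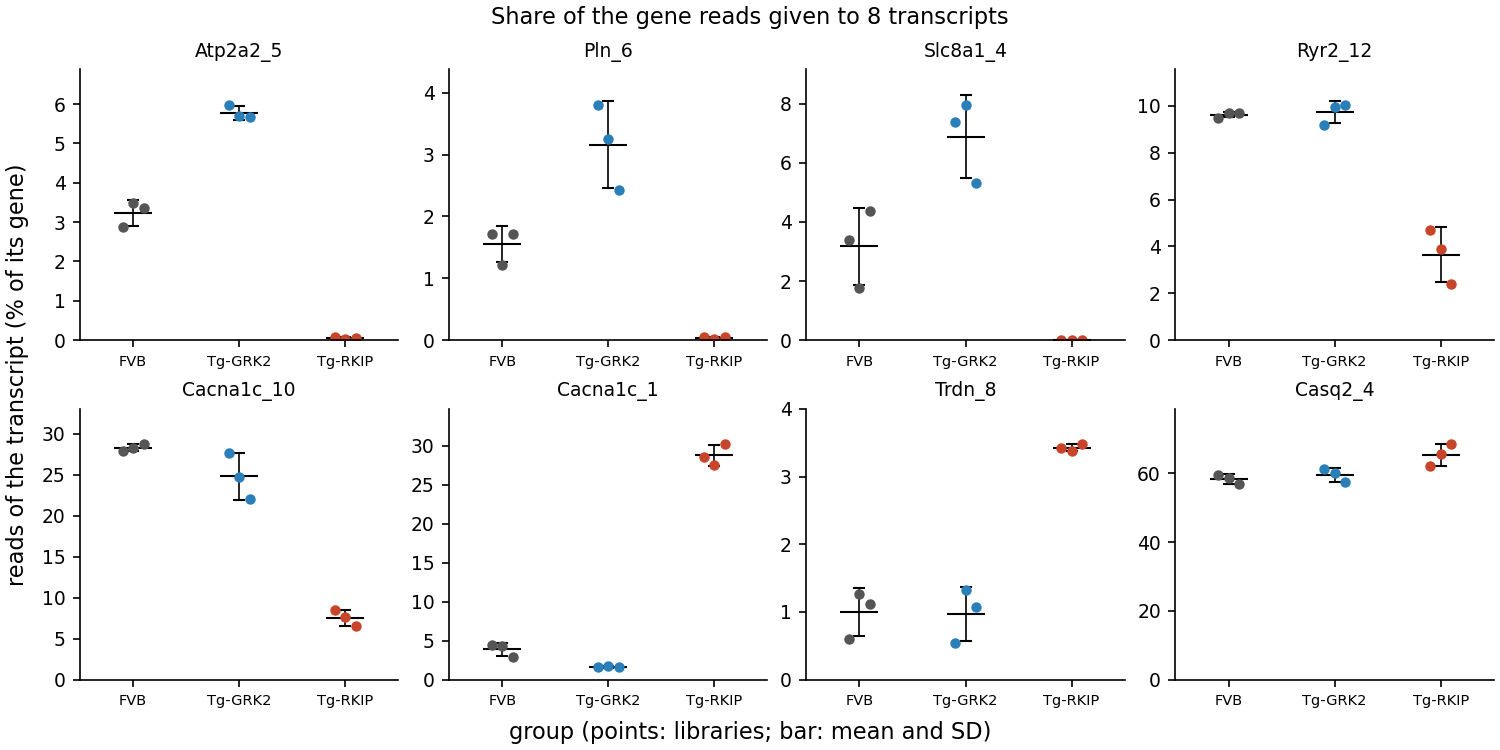
Reads of 8 transcripts as a percentage of all reads of their gene, by group, with points for libraries and bars for mean and SD of 3. Atp2a2_5, Pln_6 and Slc8a1_4 lie near 0 in Tg-RKIP and highest in the libraries labelled Tg-GRK2, while Cacna1c_1 reaches 27.6 to 30.2% in Tg-RKIP. Atp2a2_3, the other transcript with the SERCA2b ending, is not drawn and held 8.82% ± 0.0552 (SD, n = 3) for Tg-RKIP against 2.67% ± 0.0943 (SD, n = 3) for FVB.

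The promoters of Pln, which fell, and S100a1, which rose, are shown as the 250 bases before the start of the gene in RefSeq (GRCm38.p6). A promoter entry was found for 7 of the 10 genes, and for Jph2 and Cacna1c there was more than 1. Each of 6 motifs was searched on both strands, and matches are in capitals. TATAAA, the letters of a TATA box, was found in the window of Pln and in 12.4% of all 32851 promoters. AGATAA, bound by GATA factors, was found in those of Pln, as its reverse complement, and Slc8a1, and in 9.99% of all. CAGCTG, an E-box, was found for Jph2 and in 13% of all, and the MEF2 motif for Casq2 and in 2.92% of all. CATTCC, bound by TEAD factors, matched no window of the members and 12.6% of all promoters, and the CArG motif no window and 1.47% of all.
Pln, chr10:53337436-53337685, plus strand: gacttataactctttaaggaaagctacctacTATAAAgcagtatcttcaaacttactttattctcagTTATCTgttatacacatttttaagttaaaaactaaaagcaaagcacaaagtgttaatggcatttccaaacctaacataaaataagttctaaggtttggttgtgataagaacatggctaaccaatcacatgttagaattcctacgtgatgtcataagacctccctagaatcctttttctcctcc
S100a1, chr3:90514331-90514580, minus strand: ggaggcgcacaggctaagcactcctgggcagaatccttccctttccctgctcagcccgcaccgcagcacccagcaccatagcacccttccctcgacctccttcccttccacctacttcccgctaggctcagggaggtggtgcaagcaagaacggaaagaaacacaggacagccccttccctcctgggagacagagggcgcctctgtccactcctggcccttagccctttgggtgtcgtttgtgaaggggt

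Beyond the 10 members, 82 genes in 8 lists cover the rest of the pathway, and 81 were tested. In Tg-RKIP against FVB, 37 were higher and 33 lower, and scaled to library size 55 were higher and 17 lower. Among all tested genes 36.8% were higher and 37.1% lower, and by library size 62.6% and 17.1%. The median log2 fold change of the 81 was 0.09, near the 0.01 of all tested genes and unlike the -0.77 of the members. For Tg-GRK2 against FVB, 18 were higher and 12 lower, beside 12.2% of all tested genes in each direction.

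Among 10 partners of SR uptake, 4 were higher and 4 lower in Tg-RKIP, and 6 and 2 by library size. Strit1, whose small product DWORF relieves the pump from phospholamban, was lowest at -1.41 (SE 0.10, adjusted p = 6.54e-11, edgeR), with 65.3 ± 9.14 TPM (SD, n = 3) against 130.0 ± 23.4 TPM (SD, n = 3) in FVB. Sarcalumenin (Srl), a luminal calcium-binding protein that stabilises SERCA, fell by 0.97 (SE 0.02), and Ppp1r2, an inhibitor of protein phosphatase 1, fell by 0.14 (SE 0.02). Calreticulin (Calr) rose by 0.18 (SE 0.02), Atp2a3, another SERCA gene, by 0.20 (SE 0.06) and Hax1, a binding partner of phospholamban, by 0.13 (SE 0.05). By library size, Ppp1r2 was instead higher, by 0.24.

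Of 18 partners of SR release, 9 were higher and 8 lower, and 12 and 3 by library size. Hrc, a histidine-rich calcium-binding protein of the SR lumen, fell by 0.70 (SE 0.02), Tmem38a, the counter-ion channel TRIC-A, by 0.65 (SE 0.02), and Jph1, the junctophilin of skeletal muscle, by 0.56 (SE 0.04). Ryr3 rose by 1.00 (SE 0.09), though its level was only 5.61 ± 0.826 TPM (SD, n = 3) in Tg-RKIP, well under that of Ryr2. Casq1, the calsequestrin of skeletal muscle, rose by 0.89 (SE 0.03), with 154 ± 0.204 TPM (SD, n = 3) against 55.7 ± 1.12 TPM (SD, n = 3). Fkbp1a, whose product FKBP12 binds ryanodine receptors, rose by 0.40 (SE 0.02).

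Among the partners of the L-type channel, 11 of 12 were tested, 3 were higher and 4 lower, and 7 and 2 by library size. The beta subunits changed in opposite directions. Cacnb2, the main beta subunit of heart muscle, fell by 0.91 (SE 0.03), with 20.7 ± 1.04 TPM (SD, n = 3) against 33.7 ± 1.05 TPM (SD, n = 3), while Cacnb1 rose by 1.09 (SE 0.07), with 15.99 ± 0.817 TPM (SD, n = 3) against 5.49 ± 0.437 TPM (SD, n = 3), and Cacnb3 rose by 1.11 (SE 0.12). Cacna2d1, the alpha2delta subunit, fell by 0.69 (SE 0.02) and Cacna1d, another pore subunit, by 0.39 (SE 0.14), though on log2(TPM + 0.1) they were at 0.07 and 0.31. Rrad, a small GTPase that restrains the channel, rose by 0.50 (SE 0.02) in Tg-RKIP and by 0.54 in the libraries labelled Tg-GRK2.

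Of 8 organisers of the T-tubules and dyads, the sites where L-type channels face the SR, 2 were higher and 5 lower, with a median of -0.61, and 3 and 5 by library size. Cmya5, a protein that anchors dyads at the Z-disc, fell by 1.73 (SE 0.02), the myotubularin gene Mtm1 by 0.93 (SE 0.05) and caveolin-3 (Cav3) by 0.75 (SE 0.04). Bin1, which bends the T-tubule membrane, rose by 1.63 (SE 0.07), with 16.2 ± 0.893 TPM (SD, n = 3) against 3.83 ± 0.0928 TPM (SD, n = 3). Tcap, the telethonin gene, rose by 0.41 (SE 0.02).

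Of 10 genes of extrusion and sodium handling, 3 were higher and 6 lower, and 6 and 3 by library size. Atp2b2, a plasma membrane calcium pump at 0.680 ± 0.170 TPM (SD, n = 3) in FVB, fell by 0.97 (SE 0.19). Fxyd1, phospholemman, rose by 0.07 (SE 0.02). Of 9 mitochondrial calcium genes, 3 were higher and 5 lower, and 6 and 2 by library size, with Mcur1 at -0.77 (SE 0.03), Letm1 at -0.47 (SE 0.03), Micu3 at -0.40 (SE 0.07) but 0.01 on log2(TPM + 0.1), Smdt1 at 0.11 (SE 0.04) and Slc8b1 at 0.61 (SE 0.07).

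Store-operated entry and the S100 family lay on the higher side. Of 6 genes of store-operated entry, 4 were higher and 1 lower, with Orai2 at 1.46 (SE 0.15), Orai1 at 0.75 (SE 0.06), the SR calcium sensor Stim1 at 0.34 (SE 0.04) and Saraf at -0.10 (SE 0.02). By library size, all 6 were higher, Saraf included. The 9 other S100 genes all rose in Tg-RKIP under each of the 3 scalings, with a median of 1.52 by TMM-scaled counts, against 0.16 for S100a1. S100b rose by 3.24 (SE 0.12), S100a4 by 2.00 (SE 0.09) and S100a6 by 1.52 (SE 0.04). S100a6 reached 299.9 ± 4.95 TPM (SD, n = 3), under the level of S100a1. For Tg-GRK2 against FVB, 2 of the 9 were higher and 2 lower. Several of these S100 genes are known from fibroblasts and leukocytes, whose markers are given next.

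**Figure D5:**
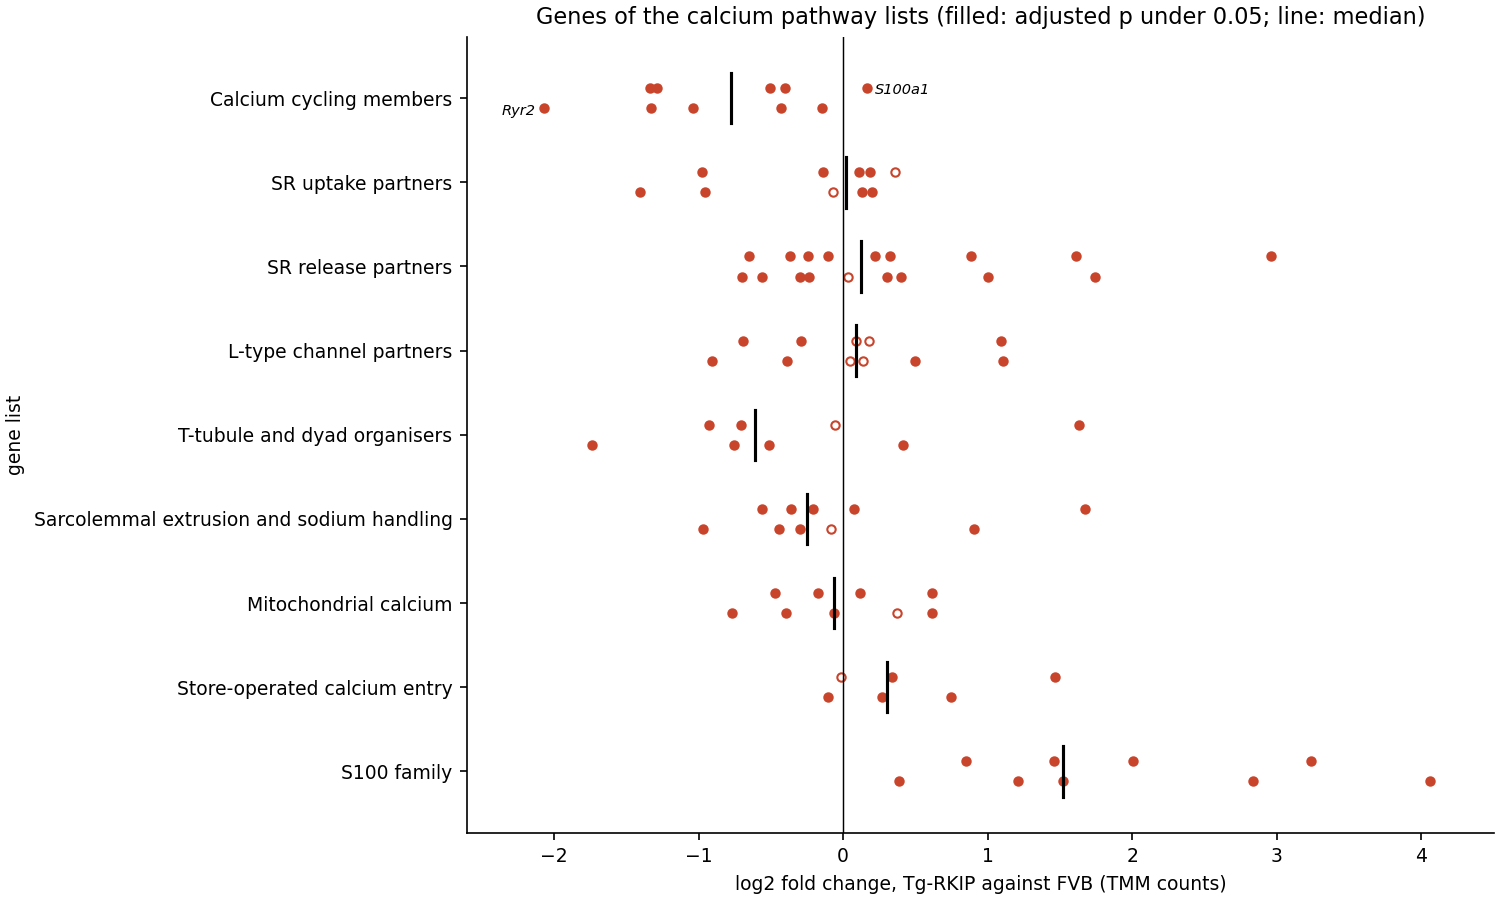
Log2 fold change (TMM-scaled counts) in Tg-RKIP against FVB of the 10 members and of the genes of 8 pathway lists, filled where the adjusted p was under 0.05, with a black line at the median of each list. The members have a median of -0.77 and the other S100 genes one of 1.52.

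Markers of other cell types moved with the comparison of Tg-RKIP with FVB. All 8 fibroblast markers were higher, with a summed level of 2793 to 2816 TPM against 984 to 1021 TPM in FVB, and so were all 6 macrophage markers, at 369 to 377 TPM against 141 to 145 TPM, and all 5 adipocyte markers, at 73.8 to 78.2 TPM against 8.50 to 10.1 TPM. Of the 6 endothelial markers 3 were higher and 3 lower, at 429 to 452 TPM against 247 to 249 TPM, and of the 4 smooth muscle markers 3 were higher and 1 lower, at 660 to 676 TPM against 242 to 266 TPM. The 4 airway markers summed to 65.0 to 68.0 TPM in Tg-RKIP and 158 to 165 TPM in the libraries labelled Tg-GRK2, with at most 0.822 TPM in FVB, where Scgb1a1 and Scgb3a2 were at 0. Of the cartilage markers, 3 of 4 were tested and all 3 were higher, at 324 to 331 TPM against 9.80 to 10.6 TPM.

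Markers also moved with the comparison of Tg-GRK2 with FVB. Of the 8 fibroblast markers 5 were higher and 0 lower, at 1123 to 1136 TPM, of the 5 adipocyte markers 4 were higher, at 19.5 to 21.6 TPM, of the 6 macrophage markers 3 were higher, at 156 to 161 TPM, and all 4 airway markers were higher. Their part in the members' differences was not tested.

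Markers of the muscle cells themselves moved unequally. The 10 cardiomyocyte markers summed to 51973 to 52627 TPM in Tg-RKIP, beside 45821 to 47247 TPM for FVB, and by counts 2 were higher and 7 lower, with a median of -0.11. By library size 6 were higher and 4 lower, with a median of 0.27, and on TPM 6 and 3, with a median of 0.32. Myh6, the alpha myosin heavy chain, fell by 1.35 (SE 0.01, adjusted p = 1.45e-28, edgeR), with reads that its close paralogue Myh7 could share, but by only 0.19 with limma on log2(TPM + 0.1), and desmin (Des) rose by 0.90 (SE 0.02, adjusted p = 2.09e-22, edgeR). The 4 ventricular markers had a median of -0.66, with 3 lower by counts, and summed to 15723 to 16236 TPM against 20538 to 21124 TPM. Of the skeletal muscle markers, 4 of 10 were tested and 2 were higher, and the sum was 7.35 to 8.84 TPM against 2.90 to 4.73 TPM. The part of these markers in the changes of the 10 members was not tested.

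The genes whose pattern over the 9 libraries lay closest to that of 4 members were found by Euclidean distance on the log2 scale of TMM-scaled counts, centred on FVB, among 11352 genes with a mean of at least 100 counts. For Atp2a2 they were Myh6 at a distance of 0.0652, Dmd at 0.0714 and Tmem143 at 0.0880. For Pln they were Pdha1 at 0.0361, mt-Co3 at 0.0642 and Mmut at 0.0819. For Sln they were Cd93 at 0.0729, Zdhhc21 at 0.0756 and Mgrn1 at 0.0842. For S100a1 they were Ssr4 at 0.050, Hmgn2 at 0.0632 and Hacd3 at 0.0707. These 9 libraries fall into 3 groups, so the likeness is mainly that of the group means.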

How the data were processed

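Hearts of 3 Tg-RKIP, 3 Tg-GRK2 and 3 FVB/N mice were sequenced with single reads of 50 bases after random-hexamer priming. For 127558 transcripts, the deposited counts are whole reads without normalization. The authors also deposited TPM per transcript. The submitters' processing notes name the build GRCm39, and the aligner and counter are not given in the sources used here. Deposited TPM equalled TPM recomputed from counts and lengths to within 5.46e-10 of the value, above 1 TPM. No row lacked a gene name.

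Counts and TPM were summed per gene and grouped by sample label. The fit of the counts used edgeR 4.0.16 under R 4.3.3 (TMM, filterByExpr, quasi-likelihood fit of all 9 libraries, Benjamini-Hochberg over all genes, threshold 0.05), and that of TPM used limma 3.58.1 on log2(TPM + 0.1), keeping genes that reached 1 TPM in 3 libraries. The SE is the fold change divided by the root of the test statistic. A limma fold change is on the log2(TPM + 0.1) scale. The script was tested on simulated data with known changes. Alternatives were DESeq2 1.42.0, its size factors, library size, other filters and pseudocounts, left-out libraries, replicate blocks, paired groups only, fits without mitochondrial genes and the most abundant transcript. Depth was 25458108 to 33447654 reads per library, counting intervals cover counting error only, and 3 reads per library were taken as the floor of a library at 0.

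Named are all 10 members, of each pathway list up to 3 genes highest and 3 lowest in Tg-RKIP among those past the threshold whose higher group averaged 100 counts or more, markers, the targeted genes and the nearest genes of 4 members. Some genes that this rule names are not reported here. The members and lists were chosen with earlier results of these data known.

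GENCODE M21 and RefSeq promoters are of GRCm38, so their sequences were matched by transcript identifier or symbol, and coordinates of genes, transcripts and exons are those deposited.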

Additional observations from a re-analysis of the deposited data

How the results depend on the processing

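For the members in Tg-RKIP against FVB, 1 was higher by TMM, 2 when scaled to library size or by limma on TPM with any pseudocount or filter, and 0 by the most abundant transcript. In Tg-RKIP against Tg-GRK2 the number higher was 2 by library size and by each limma fit. In Tg-GRK2 against FVB, the number lower was 1 by limma at either pseudocount and 0 without the filter, and the number higher was 3 by limma without the filter and by the most abundant transcript. Casq2 turned to 0.23 by library size and to 0.25 by each limma fit in Tg-RKIP against FVB, and to 0.19 by library size and by each limma fit in Tg-RKIP against Tg-GRK2. It turned to 0.0142 by limma with a pseudocount of 0.1, with or without the filter, and to 0.0141 with 1, for the Sln log2 fold change, Tg-RKIP against FVB, and Pln to 0.0899 by each limma fit in Tg-GRK2 against FVB. Of the other pathway genes, the number lower was 17 by library size and 13 by limma in Tg-RKIP against FVB, 4 by limma in Tg-GRK2 against FVB, and 17 by library size and 18 by limma in Tg-RKIP against Tg-GRK2. Over all tested genes, Tg-GRK2 against FVB gave 3793 calls, 2191 by limma on log2(TPM + 0.1), 942 without its filter and 1665 by the most abundant transcript. With at least 10 reads in every library, 5 described transcripts were higher in Tg-GRK2 than FVB, against 3. The cause was not tested. With the replicate block, 9 members were lower and 1 higher in Tg-RKIP against FVB, as without it, and no member's call changed side. Same-numbered libraries of different groups correlated at -0.0414 to 0.0422 in their deviations, so the numbers were not taken as pairs. Leaving out each library in turn changed no count of members by over 1.5 times.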
